A study of Homo sapiens with 6 samples.

Results

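The genes for the proteins of the mitochondrial ribosome were followed in human HEK293T cells. They were taken as every row of the count table whose gene ID belongs to a protein-coding gene with a symbol of the form MRPL or MRPS followed by a number. Of 62700 gene IDs, 166 carried such a symbol, and 88 of these were left out as pseudogenes, as non-coding genes or because no gene type was annotated for them. The remaining 78 genes comprised 49 MRPL genes, named for the large subunit, and 29 MRPS genes, named for the small subunit.

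HEK293T cells derive from human embryonic kidney and express the large T antigen of SV40. All 6 libraries came from cells treated with the transfection reagent Lipofectamine 2000. In the editor group (n = 3) the plasmid encoded SpRY-ABE8e, an adenine deaminase fused to a Cas9 form that tolerates nearly any sequence next to its target, and guides directed it to the splice acceptor and the splice donor of APP exon 17. In the GFP group (n = 3) the plasmid encoded green fluorescent protein and no guide is named. The controls therefore differ from the editor cells in the plasmid, the editor protein and the guides together, and these cannot be told apart. The share of cells that took up a plasmid is not given. PolyA-selected RNA was sequenced, and the series asks, beside its question on APP, whether the editor alters expression elsewhere.

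Mitochondria translate the few proteins encoded in their own DNA on a dedicated ribosome, the mitoribosome. Its RNAs are transcribed inside the organelle, whereas all of its proteins are encoded in the nucleus, made in the cytosol and imported. Many of these proteins have a counterpart in the bacterial ribosome, others exist only in mitochondria, and loss of several of them in humans causes disorders of oxidative phosphorylation.

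The libraries held 110519197 to 152625595 reads assigned to genes. Of 5 epithelial markers, KRT18 stood at 43.9 to 56.6 CPM, which are counts scaled to 1000000 reads per library, and KRT8, CDH1 and EPCAM were present, but KRT19 had 0 or 1 read in every library. Of 5 kidney lineage markers, PAX2, WT1 and SIX2 were present, but PAX8 had only 1 to 10 and LHX1 only 8 to 25 reads per library. Of 5 neuronal markers, NEFM reached 222 to 283 CPM and NEFL 145 to 184 CPM, whereas STMN2, MAP2 and RBFOX3 stood between 0.506 and 3.58 CPM. Within the editor group, libraries 2 and 3 were the closest pair, with a chi-square over all genes, divided by its degrees of freedom, of 3.40, where the remaining pairs inside either group had 35.5 to 198. Over the mitoribosome genes the same quantity was 2.09 for this pair and 24.0 to 241 for the others. The sample titles label the libraries of each group as biological replicates. Whether each library had its own dish of cells and its own transfection is not stated in the sources used here. The p-values thus reflect no more than the variation among these libraries, which may be technical. GFP library 1 stood apart for the mitoribosome genes, and results are therefore given with and without it.

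The 78 genes took 0.373%, 0.372% and 0.373% of all reads in editor libraries 1 to 3, and 0.428%, 0.351% and 0.370% in GFP libraries 1 to 3. The editor libraries were nearly equal, and they lay inside the range of the GFP libraries, which was set by GFP library 1 at the top and GFP library 2 at the bottom. After scaling by TMM, a method that corrects library totals for differences in composition, their summed level was 3860, 3558 and 3572 CPM with the editor and 4253, 3607 and 3833 CPM with GFP. The group means were 3663 ± 170 CPM for the editor and 3897 ± 328 CPM for GFP (SD, n = 3 each), and the groups overlapped. In bulk RNA such a level does not tell fewer cells that express a gene from less RNA per cell.

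The balance between the subunits did not differ between the groups beyond the spread of the libraries. The summed CPM of the MRPL genes divided by that of the MRPS genes was 1.96, 1.85 and 1.85 in the editor libraries and 1.88, 1.88 and 1.90 in the GFP libraries. The means were 1.88 ± 0.0646 and 1.89 ± 0.0148 (SD, n = 3 each), and the GFP values lay within the range of the editor values. Names and places differ for a few genes. MRPS30 and MRPS18A are named for the small subunit but sit in the large subunit, and MRPS36 is known as a part of the 2-oxoglutarate dehydrogenase complex. With the genes assigned by place, 51 belonged to the large and 26 to the small subunit, and the ratio was 2.16 ± 0.0601 in the editor libraries and 2.16 ± 0.0314 in the GFP libraries. The mean log2 CPM of the tested MRPL genes minus that of the MRPS genes was 0.206, 0.180 and 0.183 in the editor libraries. In the GFP libraries it was 0.328, 0.212 and 0.172, so the editor values lay within the GFP range and GFP library 1 was highest. MRPL45, with nearly all of its reads in GFP library 1, is among these MRPL genes.

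**Figure D1:**
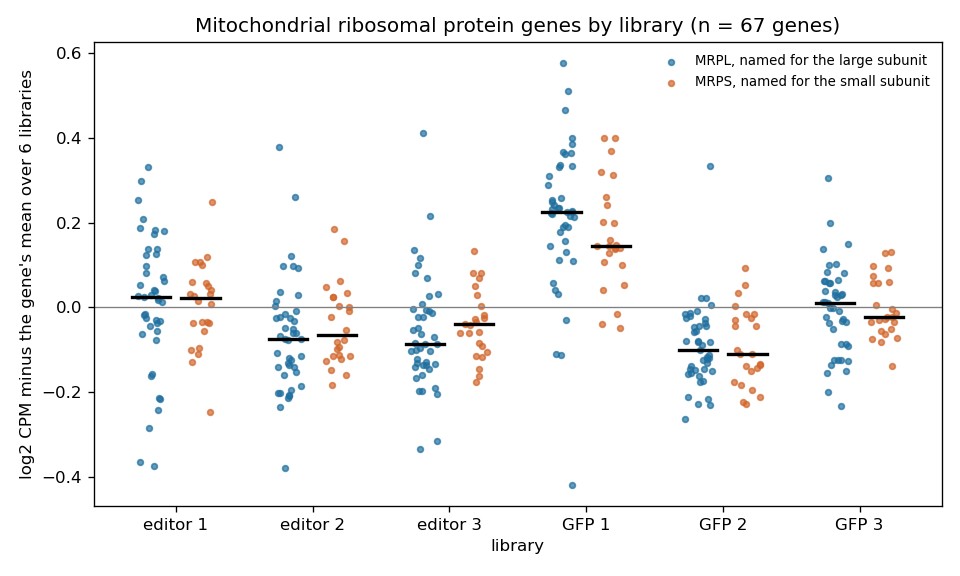
Each point is 1 mitochondrial ribosomal protein gene in 1 library, as log2 CPM minus the mean of that gene over the 6 libraries, for the 67 genes with a mean of at least 1000 reads. Blue points are MRPL genes, orange points are MRPS genes and black bars are medians; both medians are highest in GFP library 1 and lowest in GFP library 2.

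Levels between genes were compared as CPM per kilobase of merged exon. Among the 67 genes with a mean of at least 1000 reads, the level ran from 2.59 to 103 CPM per kilobase with a median of 17.1. The median was 17.9 for the 43 MRPL genes and 15.3 for the 24 MRPS genes in this range. The 10th and 90th percentiles were 7.64 and 47.2 CPM per kilobase. For a single gene, the highest library exceeded the lowest by a median of 1.32-fold, with a range from 1.08-fold to 1.85-fold over these 67 genes.

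MRPS34, a mitochondria-specific protein of the small subunit whose loss destabilises that subunit, had the highest level per kilobase. It was measured at 121, 101 and 98.6 CPM with the editor and 147, 101 and 108 CPM with GFP. GFP library 1 was highest, editor library 1 second, and the groups overlapped. The next genes in order were MRPL51 at 77.1, MRPL3 at 66.5 and MRPL37 at 63.6 CPM per kilobase. MRPL51 and MRPL37 are mitochondria-specific proteins of the large subunit, and MRPL3 is the counterpart of a bacterial protein near the peptidyl transferase centre. MRPL3 was among the steadiest, with 185, 171 and 170 CPM with the editor against 186, 183 and 188 CPM with GFP. MRPS21, the counterpart of a bacterial small-subunit protein, followed MRPS34 among the MRPS genes at 52.4 CPM per kilobase.

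At the other end, 11 genes had a mean under 1000 reads per library. They were MRPS18B, MRPL53, MRPS24, MRPL38, MRPL45, MRPL46, MRPS28, MRPS5, MRPS17, MRPL23 and MRPL2. Of these 11 genes, 7 share exon bases with another gene on the same strand, against 9 of the 67 genes above that limit. How reads were counted where genes overlap or where a read matches several places is not given in the sources used here, so a low count at these genes cannot be told apart from reads that were left unassigned.

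MRPS18B, a mitochondria-specific protein of the small subunit, had 1 read in editor library 2 and 0 reads in each of the other 5 libraries. Its gene lies on chromosome 6, from 30617709 to 30626395 on GRCh38. Of the 14 protein-coding genes within 150 kb of it, 13 had under 50 mean reads, against 34.6% of all protein-coding genes. They included TUBB, a tubulin gene used by most cells, with 2 to 17 reads per library. The paralogs MRPS18A and MRPS18C stood at 21.2 ± 0.879 and 21.8 ± 1.12 CPM with the editor (SD, n = 3 each). In the GFP libraries they stood at 22.7 ± 3.89 and 21.2 ± 2.69 CPM, so each paralog overlapped between the groups.

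MRPL53, a mitochondria-specific protein of the large subunit, had 3, 1 and 3 reads in the editor libraries and 0, 0 and 1 in the GFP libraries. Its exons are shared over 45.2% of their length with CCDC142, which had 990, 1244 and 1502 reads in the editor libraries and 1120, 802 and 799 in the GFP libraries. MRPS24, the counterpart of a bacterial protein at the entry of the messenger RNA, had 29 to 56 reads, and MRPL38, a protein of the central protuberance, had 32 to 67. The annotated partners that overlap these 2 genes on the same strand, a readthrough gene in the case of MRPS24, had 0 to 4 reads in the 6 libraries.

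MRPL45, the protein of the large subunit that sits at the exit of the tunnel and helps hold the ribosome at the inner membrane, had 9, 11 and 10 reads in the editor libraries and 447, 9 and 8 in the GFP libraries. A single library, GFP library 1, held nearly all of its reads, and the other 5 libraries did not differ beyond 3 reads. Of the 4 protein-coding genes within 150 kb of MRPL45, 3 had under 50 mean reads, and SOCS7 had a mean of 341.5. Of all protein-coding genes, 34.6% had under 50. MRPL23, another protein at the tunnel exit, had 897 reads in GFP library 2 and 371 to 660 in the other libraries. MRPL46, also of the central protuberance, had 107 to 162 reads. Its gene and MRPS11 start next to each other on opposite strands of chromosome 15, and MRPS11 stood at 19.8 ± 1.98 CPM with the editor and 17.9 ± 2.48 CPM with GFP (SD, n = 3 each).

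**Figure D2:**
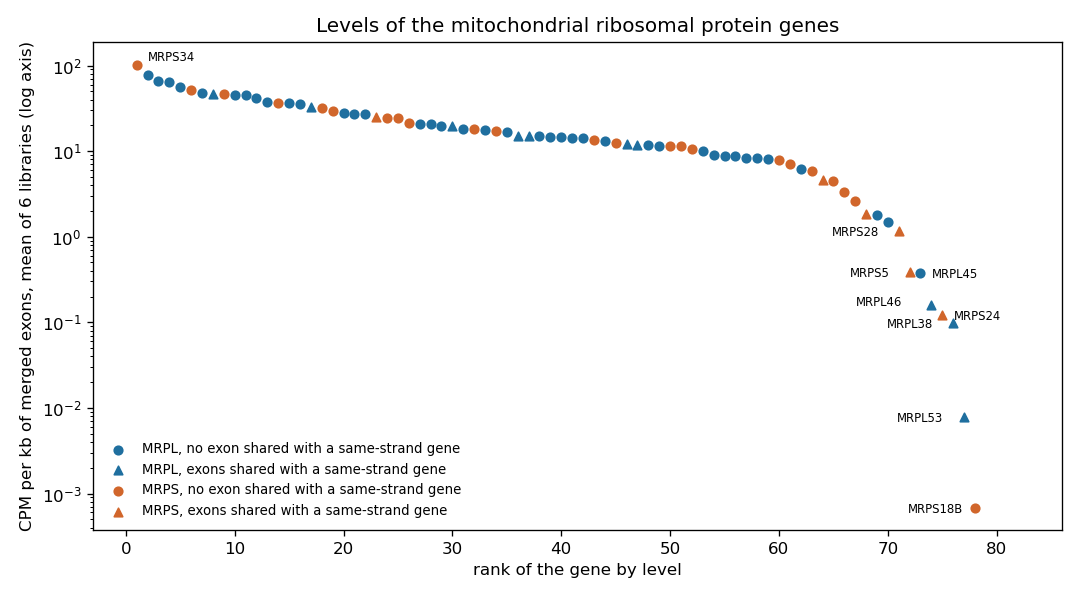
Mitochondrial ribosomal protein genes (n = 78) ranked by their mean level over 6 libraries, in CPM per kilobase of merged exon on a log axis; triangles mark genes that share exon bases with a gene on the same strand. MRPS34 leads at 103 CPM per kilobase. The genes with under 1000 mean reads take the last ranks, from MRPS17 at 1.86 CPM per kilobase down to MRPS18B with 1 read in all.

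A few start regions are shown because motifs of ETS factors and of YY1 occur in them more often than in promoters at large. RefSeq promoters on GRCh38.p14, 250 bases before to 50 bases after the annotated start, matched 69 of the 78 genes. Sequences are written 5′ to 3′ on the strand of the gene, and capitals mark the ETS letters CCGGAAG or their reverse complement, and the longer YY1 motif. The YY1 motif is the second run of capitals in MRPS10, with any base allowed at the third letter. The sequence of MRPS34, the gene with the highest level per kilobase, shows 3 ETS matches. Those of MRPS10 and MRPS18A show both motifs, and those of MRPL46 and MRPL1 show the YY1 motif alone.

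MRPS34 (chr16:1773085-1773384, minus strand): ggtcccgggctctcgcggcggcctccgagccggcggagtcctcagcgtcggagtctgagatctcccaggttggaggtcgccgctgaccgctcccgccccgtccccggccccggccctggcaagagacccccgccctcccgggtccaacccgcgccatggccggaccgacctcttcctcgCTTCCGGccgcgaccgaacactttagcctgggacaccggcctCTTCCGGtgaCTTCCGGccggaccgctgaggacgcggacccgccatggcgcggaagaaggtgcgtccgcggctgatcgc
MRPS10 (chr6:42217812-42218111, minus strand): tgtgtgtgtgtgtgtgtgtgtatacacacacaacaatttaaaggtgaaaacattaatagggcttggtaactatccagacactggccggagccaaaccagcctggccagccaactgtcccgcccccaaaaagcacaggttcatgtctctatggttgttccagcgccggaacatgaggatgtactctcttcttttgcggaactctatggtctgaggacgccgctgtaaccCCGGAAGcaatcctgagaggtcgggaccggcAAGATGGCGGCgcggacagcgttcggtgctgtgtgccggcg
MRPS18A (chr6:43687742-43688041, minus strand): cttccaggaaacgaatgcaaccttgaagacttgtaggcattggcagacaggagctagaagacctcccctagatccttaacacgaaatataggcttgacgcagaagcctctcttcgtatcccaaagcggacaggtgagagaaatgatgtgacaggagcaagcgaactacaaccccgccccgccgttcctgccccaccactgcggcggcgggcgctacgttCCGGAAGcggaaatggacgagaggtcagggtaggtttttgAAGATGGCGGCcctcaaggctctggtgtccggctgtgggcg
MRPL46 (chr15:88467339-88467638, minus strand): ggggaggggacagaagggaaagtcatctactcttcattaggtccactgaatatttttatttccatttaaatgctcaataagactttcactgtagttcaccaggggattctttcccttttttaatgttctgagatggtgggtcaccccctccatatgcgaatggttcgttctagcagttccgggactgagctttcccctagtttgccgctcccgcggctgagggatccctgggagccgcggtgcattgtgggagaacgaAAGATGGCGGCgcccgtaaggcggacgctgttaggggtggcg
MRPL1 (chr4:77862580-77862879, plus strand): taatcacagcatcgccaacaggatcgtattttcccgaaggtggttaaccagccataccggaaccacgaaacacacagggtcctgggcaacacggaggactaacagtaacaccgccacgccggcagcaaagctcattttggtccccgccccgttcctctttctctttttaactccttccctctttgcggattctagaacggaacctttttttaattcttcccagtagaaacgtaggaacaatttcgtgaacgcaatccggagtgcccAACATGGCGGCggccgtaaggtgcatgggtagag

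ETS factors such as GABPA and the factor YY1 are known activators of nuclear genes for mitochondrial proteins. On either strand, the ETS letters occurred in 29 of the 69 promoters (42.0%), against 10.7% of 27305 promoters in the RefSeq table and 14.2% of those of protein-coding genes. The YY1 letters occurred in 14 of 69 (20.3%), against 1.55% of all promoters and 2.25% of those of protein-coding genes. In MRPS34 the 3 ETS matches begin 71, 29 and 19 bases before the start. In MRPS10 and MRPS18A, which encode a small-subunit protein with a bacterial counterpart and a large-subunit protein, an ETS match before the start is followed by a YY1 match at base 10 after it, counting the first transcribed base as 1.

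Most matches to the YY1 letters lay just after the start. Of the 14 matches, 13 lay after the start on the strand of the gene, first base at positions 7 to 36, against 53.3% of the matches in all promoters. The YY1 letters contain ATG, the letters of a start codon, and whether these matches coincide with the start of translation was not tested. MRPL1 has its match at base 17 and MRPL46 at base 9. Of the other motifs searched on both strands, the NRF1 motif occurred in 11.6% of the 69 promoters, against 6.28% of all and 8.58% of those of protein-coding genes. The GC box GGGCGG occurred in 60.9%, against 44.6% of all but 58.5% of protein-coding promoters, and the E-box CACGTG in 8.70%, against 7.43% and 8.88%. CCAAT occurred in 28.99%, against 35.7% and 36.4%. The searched letters of the ETS and YY1 motifs do not overlap each other, and a match describes the letters only. The median log2 fold change, editor minus GFP, was -0.07 for genes with the ETS letters and -0.08 for those without, and -0.07 both with and without the YY1 letters.

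Against the GFP libraries, no mitochondrial ribosomal protein gene passed the test in the editor libraries. Of the 78 genes, 76 passed the filter on low counts, and MRPS18B and MRPL53 did not. With edgeR's quasi-likelihood test and Benjamini-Hochberg adjustment over 20511 genes, 0 of the 76 passed an adjusted p of 0.05 in either direction, where 0.0244% of all genes tested passed it as higher and 0% as lower. At an unadjusted p under 0.05 there were 3 of the 76, MRPL17, MRPL38 and MRPL45, where 8.68% of all genes were past that limit. DESeq2, which gave an adjusted p for 75 of the 76, called 0 of them, where it called 0.385% of all genes, and had 1 of them at an unadjusted p under 0.05, where 8.02% of all genes were. With limma-voom 0 of the 76 were called, where 0.0146% of all genes were, and 2 had an unadjusted p under 0.05, where 8.31% of all genes did. The 95% interval of the log2 fold change lay within 0.5 of 0 for 60 of the 76 genes and within 1 for 74, so larger changes are outside the interval for most of them.

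The fold changes leaned to the low side. Of 76 genes, 60 were below 0 (78.9%), where 45.7% of all genes were, and the median log2 fold change was -0.07 against 0.02 over all genes tested. The MRPL genes had 39 of 48 below 0 with a median of -0.08, and the MRPS genes 21 of 28 with a median of -0.07. The 46 genes with a bacterial counterpart and the 29 tested mitochondria-specific ones both had a median of -0.07. For a single gene the typical standard error was 0.13, larger than these medians.

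This lean rested on GFP library 1. Without that library, 33 of 76 genes were below 0 and 43 above, where 47.1% of all genes were below, and the median was 0.01 against 0.02 over all genes. With GFP library 2 left out instead, 66 were below 0 with a median of -0.13, where 44.1% of all genes were below. Leaving out editor library 1 gave 59 below 0 with a median of -0.13, where the median over all genes was 0.0066. GFP library 1 was the highest of the 6 libraries for 53 of the 76 genes (69.7%), where it was highest for 23.2% of all genes tested. GFP library 2 was the lowest for 28 of the 76 (36.8%), where it was lowest for 17.8% of all genes tested. Without GFP library 1 edgeR called 0 of the 76 genes, where 0.019% of all genes tested passed, and 0 of the 76 had an unadjusted p under 0.05, where 11.9% of all genes did.

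**Figure D3:**
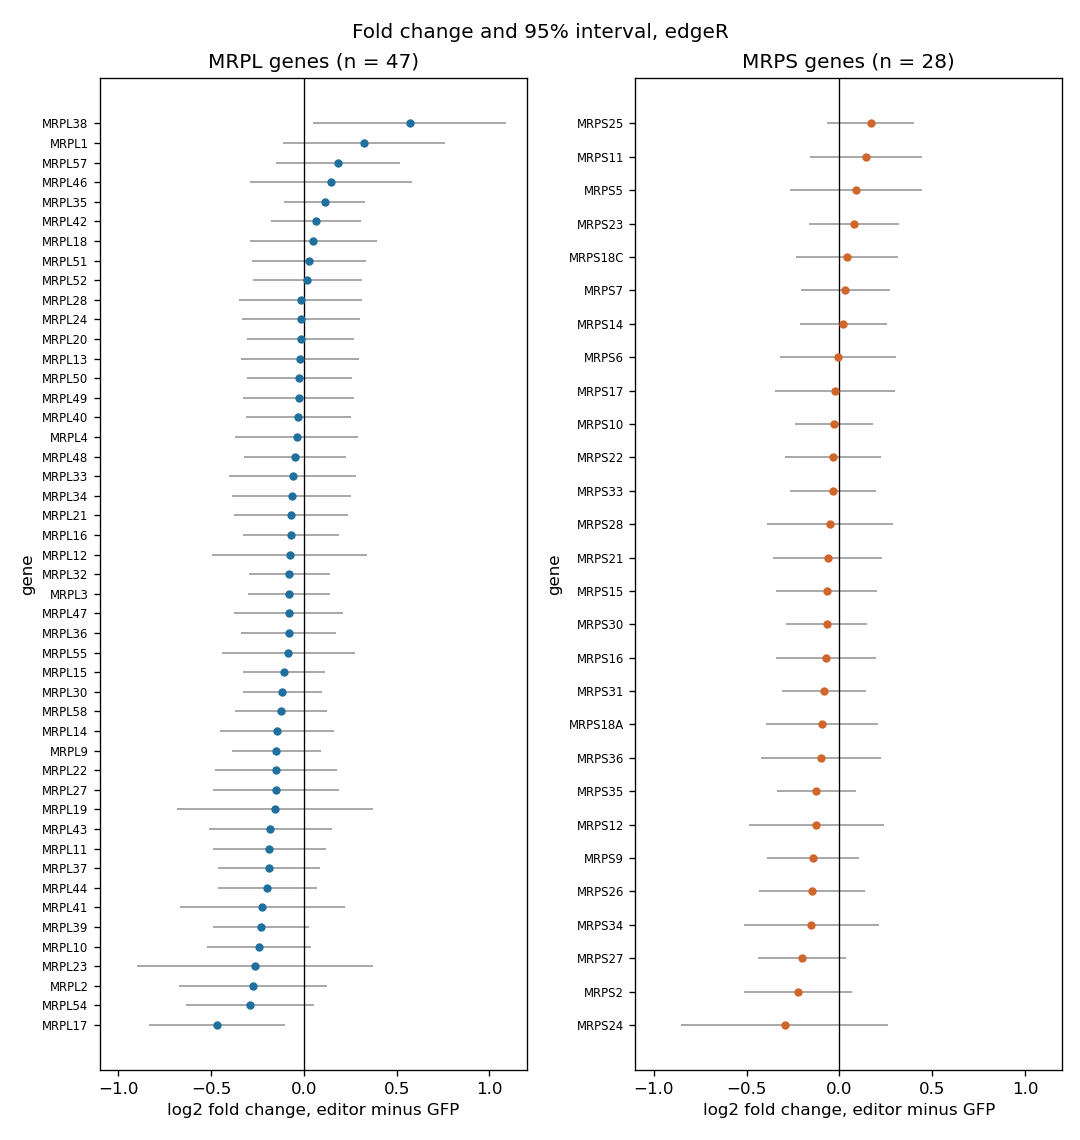
Log2 fold change, editor minus GFP, with its 95% interval from edgeR for each tested MRPL gene (left) and MRPS gene (right). MRPL45, at -3.96, is outside the plotted range and left out; MRPL17 at -0.47 and MRPL38 at 0.57 are the 2 genes drawn whose interval does not reach 0.

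MRPL17, the counterpart of a bacterial protein near the tunnel exit, had the smallest p of these genes. Its gene lies on chromosome 11 from 6680782 to 6683401 (GRCh38, minus strand). It was measured at 47.0, 35.6 and 36.7 CPM with the editor and at 66.0, 45.8 and 53.1 CPM with GFP. Editor library 1 was above GFP library 2, so the groups overlapped. Its log2 fold change was -0.47 (SE 0.16, edgeR adjusted p = 0.524), and -0.33 without GFP library 1 (adjusted p = 0.434). When the filter on low counts was dropped it was -0.52 with an edgeR adjusted p of 0.0353, in a fit that called 0.691% of the genes tested. Over the 14 alternatives run its adjusted p ranged from 0.0353 to 0.9999.

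MRPL38 had 39, 66 and 67 reads in the editor libraries and 35, 42 and 32 in the GFP libraries. Scaled to library size, every editor value was above every GFP value, at 0.431 ± 0.0716 CPM against 0.291 ± 0.0401 CPM (SD, n = 3 each). Its log2 fold change was 0.57 (SE 0.23, edgeR adjusted p = 0.551), and 0.50 without GFP library 1. For MRPL45 the log2 fold change was -3.96 (SE 1.43, edgeR adjusted p = 0.528) with all libraries and 0.12 without GFP library 1 (adjusted p = 0.923). Without the filter on low counts, MRPL45 passed the threshold at -3.997 (edgeR adjusted p = 1.78e-32), again on the reads of that 1 library. Over the 12 alternatives that gave MRPL45 an adjusted p it ranged from 1.78e-32 to 0.9999, and DESeq2 gave none.

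For 6 genes every editor value was below every GFP value and for 3 genes above, where 6.12% and 8.63% of all genes tested did so. An exact permutation test of 3 against 3 libraries cannot give a two-sided p under 0.1. MRPS27, which belongs to a family of RNA-binding repeat proteins and sits in the small subunit, stood at 161, 143 and 143 CPM against 177, 164 and 175 CPM. MRPS35, a mitochondria-specific small-subunit protein, stood at 89.5, 86.005 and 88.2 CPM against 94.4, 95.1 and 97.9 CPM. Both genes were separated by gaps of a few CPM. Their log2 fold changes were -0.20 (SE 0.10) and -0.12 (SE 0.09), with edgeR adjusted p of 0.620 and 0.727.

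MRPS2, the counterpart of a bacterial small-subunit protein, stood at 73.6, 73.1 and 73.4 CPM against 102, 78.2 and 77.1 CPM. Its editor libraries were almost equal and GFP library 1 lay far above the rest. The log2 fold change was -0.22 (SE 0.13, edgeR adjusted p = 0.647), and -0.10 without GFP library 1. The other 3 genes lower without overlap were MRPL9, MRPL15 and MRPL30. Their log2 fold changes were -0.15, -0.11 and -0.12, and -0.083, -0.094 and -0.15 without GFP library 1. On the high side, beside MRPL38, MRPL35 had a log2 fold change of 0.11 and MRPS25 one of 0.17. MRPS25, a mitochondria-specific small-subunit protein, stood at 14.2, 15.5 and 14.6 CPM against 13.6, 12.6 and 13.3 CPM (edgeR adjusted p = 0.662).

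The stalk that recruits translation factors to the large subunit is built on MRPL10 and MRPL11 and carries copies of MRPL12, a protein also reported to bind the mitochondrial RNA polymerase. MRPL12 stood at 11.8, 16.7 and 16.8 CPM with the editor and 19.7, 14.1 and 14.03 CPM with GFP. Editor library 1 was the lowest and GFP library 1 the highest, and the groups overlapped. MRPL10 stood at 99.1, 85.7 and 85.1 CPM against 121, 96.9 and 101 CPM, and MRPL11 at 44.0, 41.3 and 41.9 CPM against 58.0, 41.5 and 45.3 CPM. The log2 fold changes were -0.08 (SE 0.18) for MRPL12, -0.24 (SE 0.12) for MRPL10 and -0.19 (SE 0.13) for MRPL11. The edgeR adjusted p values were 0.928, 0.619 and 0.717, and without GFP library 1 the changes were 0.09, -0.15 and -0.05.

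The further large-subunit genes MRPL54, MRPL39, MRPL37, MRPL44 and MRPL58 were each highest in GFP library 1. MRPL54, a mitochondria-specific protein, stood at 35.3, 31.4 and 32.4 CPM against 50.03, 33.4 and 37.8 CPM, with GFP library 1 far above the rest. Its log2 fold change was -0.29 (SE 0.15, edgeR adjusted p = 0.624), and -0.12 without that library. The log2 fold change was -0.23 (SE 0.11) for MRPL39, which resembles a threonyl-tRNA synthetase, and -0.19 (SE 0.12) for MRPL37. It was -0.20 (SE 0.12) for MRPL44, which has a ribonuclease-like fold and is a cardiomyopathy gene. None of these 3 genes passed the threshold, and without GFP library 1 the values were -0.19, -0.10 and -0.14. MRPL58, a peptidyl-tRNA hydrolase that became a part of the large subunit, stood at 29.5 ± 0.675 against 32.1 ± 3.52 CPM (SD, n = 3 each), with a log2 fold change of -0.12 that was -0.044 without GFP library 1. MRPS30 and MRPS18A, the 2 genes of the large subunit with small-subunit names, had log2 fold changes of -0.07 (SE 0.10) and -0.09 (SE 0.13), and of -0.12 and 0.039 without GFP library 1.

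Among small-subunit genes linked to inherited disease, MRPS16 stood at 68.1 ± 8.17 against 71.7 ± 4.46 CPM and MRPS22 at 60.4 ± 4.77 against 61.9 ± 5.85 CPM (SD, n = 3 each). MRPS12, at the decoding centre, stood at 16.4 ± 1.03 against 17.8 ± 4.02 CPM. MRPS34, the highest MRPS gene per kilobase, had a log2 fold change of -0.15 (SE 0.16, edgeR adjusted p = 0.820), and 0.02 without GFP library 1. MRPS9, with a bacterial counterpart, had -0.14 (SE 0.11), MRPS24 had -0.29 (SE 0.25) and MRPS5 had 0.09 (SE 0.16). MRPS36 had -0.10 (SE 0.14). Without GFP library 1 these 4 values were -0.09, -0.12, 0.15 and -0.04.

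**Figure D4:**
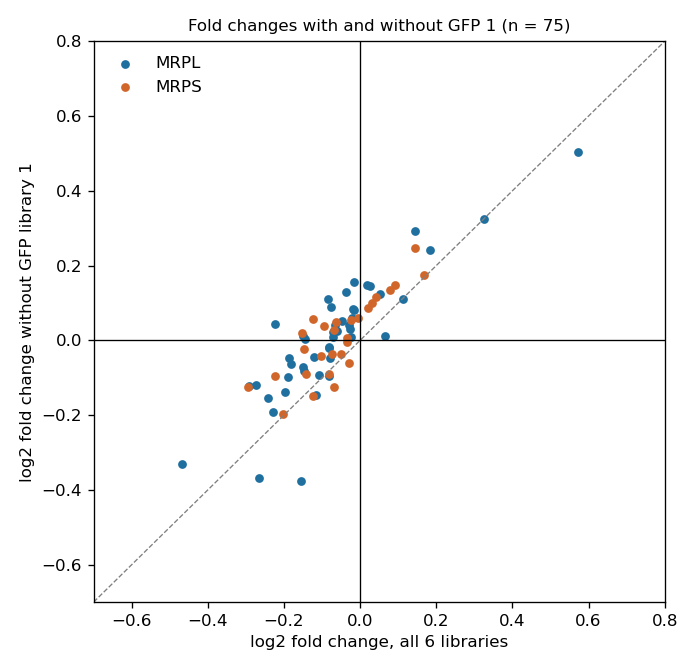
Log2 fold change, editor minus GFP, with all 6 libraries (horizontal axis) and without GFP library 1 (vertical axis) for 75 tested genes; MRPL45, at -3.96 and 0.12, lies outside the axes. The dashed line marks equal values, and most points lie above it, so that 33 of the 76 tested genes are below 0 without that library against 60 with it.

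The deviation of GFP library 1 moved with properties of the transcripts, as did those of the other GFP libraries. Relative to the mean of GFP libraries 2 and 3, the 76 genes stood a median of 0.26 higher in log2 CPM in GFP library 1, with 67 of 76 above 0. The median of this deviation was 0.02 over all genes tested. It was -0.05 over 9697 genes with a mean log2 CPM of at least 3, of which 4282 were above 0. Over 9697 genes with a mean log2 CPM of at least 3, all measured in the same libraries, this deviation had a Spearman correlation of -0.70 with transcript length and 0.65 with GC content. With these genes split by length into 4 classes of about equal size, its median was 0.23 in the shortest class, from 207 to 2386 nucleotides, and -0.39 in the longest, from 5688 nucleotides up. Of the 67 mitoribosome genes with a mean of at least 1000 reads, 54 fell in the shortest class, and their median transcript of 1500 nucleotides compared with 3755 over all genes of that range. Among these 67 genes the correlations were -0.43 with length and 0.71 with GC content. For GFP library 2 against the other GFP libraries they were 0.61 and -0.46 over the 9697 genes, and 0.27 and -0.29 over the 67. For GFP library 3 they were 0.56 and -0.68 over the 9697 genes, and 0.36 and -0.81 over the 67. These deviations share libraries, so they are not independent of each other. Over the 9697 genes, the editor libraries ran from -0.08 to 0.07 with length and from -0.28 to 0.33 with GC content. The fold changes had weaker correlations. Over the same 9697 genes the log2 fold change, editor minus GFP, had a Spearman correlation of 0.16 with length and -0.04 with GC content, and over the 67 mitoribosome genes 0.14 and -0.23. Its median over all genes of the shortest class was -0.07, and -0.0064 over the longest class. The part of length and GC content in the fold changes was not tested beyond these values.

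**Figure D5:**
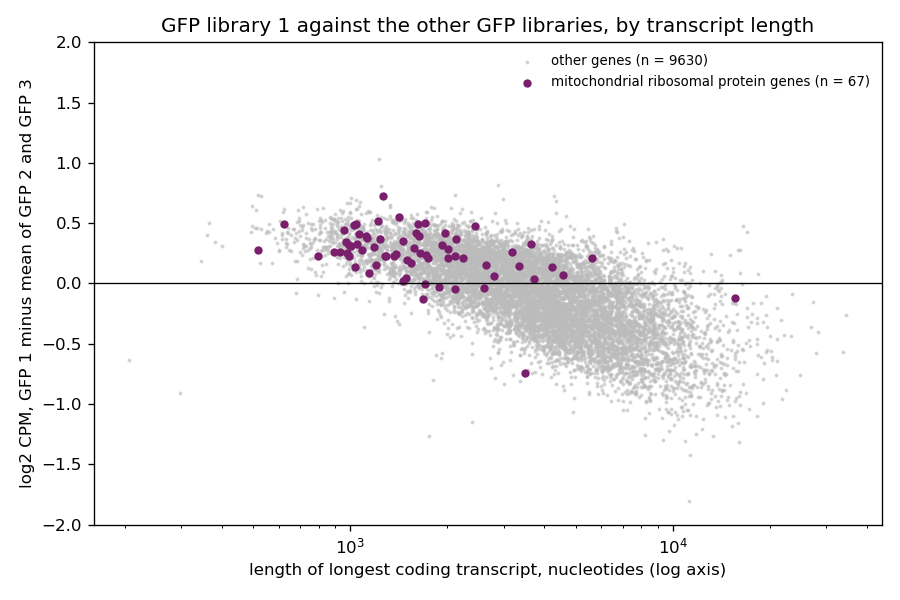
Log2 CPM in GFP library 1 minus the mean of GFP libraries 2 and 3, against the length of the longest coding transcript on a log axis, for 67 mitochondrial ribosomal protein genes (purple) and 9630 other genes (grey). The mitoribosome genes lie mostly among the short transcripts that are above 0; MRPL19 is the lowest purple point at -0.74.

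Some genes left the common pattern. MRPL19, the counterpart of a bacterial protein at the contact between the subunits, stood at 152, 103 and 96.9 CPM with the editor and 90.2, 152 and 149 CPM with GFP. GFP library 1 was its lowest library, opposite to most of the other genes, and editor library 1 was level with GFP libraries 2 and 3. Its log2 fold change was -0.16 (SE 0.23, edgeR adjusted p = 0.882), and -0.38 without GFP library 1. MRPL1, of the stalk that guides the departing transfer RNA, stood at 12.4, 20.8 and 21.3 CPM against 14.8, 14.8 and 13.9 CPM. Editor library 1 was below all GFP libraries and editor libraries 2 and 3 above them. The log2 fold change was 0.32 (SE 0.19, edgeR adjusted p = 0.654), and 0.52 without editor library 1, where the edgeR adjusted p of 0.05004 fell just short of the threshold. Over the 14 alternatives run its adjusted p ranged from that value to 0.9999.

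MRPL57, a mitochondria-specific protein, was likewise lowest in editor library 1 within the editor group, at 19.3, 26.8 and 25.97 CPM against 23.3, 21.2 and 19.0 CPM. The log2 CPM in editor library 1 minus the mean of editor libraries 2 and 3 was -0.76 for MRPL1, -0.45 for MRPL57 and -0.50 for MRPL12. It was 0.61 for MRPL19 and 0.41 for MRPL18, the counterpart of the bacterial protein that binds the small RNA of the large subunit. Over the 76 genes tested, the median of this difference was 0.11, with 52 genes above 0, where the median over all genes tested was -0.02. Over the 9697 genes with a mean log2 CPM of at least 3 the median was 0.08, close to 0.10 for the 67 mitoribosome genes among them. With editor library 1 left out, 10 of the 76 genes had an unadjusted p under 0.05, where 22.5% of all genes did, and 0 passed the adjusted threshold, where 1% of all genes did.

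In the authors' deposited table, 73 of the genes had a row, 57 of them with a log2 fold change below 0 and 0 with an adjusted p under 0.05. The lowest adjusted p among them in the authors' deposited table was 0.585. The median there was -0.06 against 0.02 over all rows, and 3 of all 15273 rows were under 0.05. That comparison is of the same groups, so it is not independent of the results above.

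Genes that work beside these proteins were read from the same edgeR fit. None of them passed the adjusted threshold, and each of the lists below held at most 1 gene at an unadjusted p under 0.05 apart from the RNAs of the mitochondrion. The 5 mitoribosomal proteins with other names, among them DAP3 of the small subunit and PTCD3, all had log2 fold changes below 0, with a median of -0.13. Without GFP library 1, 3 of the 5 were below 0, CHCHD1 and AURKAIP1 were above, and the median was -0.05. Of 26 assembly factors tested, 17 were below 0 with a median of -0.04 (9 below 0 and a median of 0.01 without GFP library 1), and the smallest p belonged to RPUSD4, a pseudouridine synthase acting on the large ribosomal RNA, at -0.27 (SE 0.10, edgeR adjusted p = 0.529) and -0.22 without that library. Of 17 translation factors, 9 were below 0 with a median of -0.01, and 6 were below 0 with a median of 0.05 without that library. Of 19 mitochondrial tRNA synthetases, 13 were below 0 with a median of -0.16 (14 and -0.10 without that library), and WARS2 had the smallest p at -0.37 (SE 0.10, edgeR adjusted p = 0.471) and -0.42 without it. The 18 mitochondrial RNA factors had a median of 0.01 (0.0018 without it), with POLRMT, the mitochondrial RNA polymerase, at -0.28 (SE 0.12), or -0.18 without it. The 12 transcription regulators had a median of 0.09, which was -0.04 without GFP library 1, with MYCN at 0.35 (SE 0.15), or 0.29 without it. The 84 cytosolic ribosomal protein genes tested had 76 below 0 and a median of -0.17, and 66 below 0 with a median of -0.05 without GFP library 1.

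In this polyA-selected RNA, the ribosomal RNAs with which these proteins work lay on the other side of 0. MT-RNR1, the RNA of the small subunit, stood at 3259, 3484 and 3421 CPM with the editor and 2691, 2810 and 2607 CPM with GFP. MT-RNR2, the RNA of the large subunit, stood at 13010, 14419 and 14572 CPM against 10196, 12078 and 9658 CPM. For both RNAs every editor library was above every GFP library. The log2 fold changes were 0.33 (SE 0.10) and 0.40 (SE 0.12), with an edgeR adjusted p of 0.499 for each, and 0.31 and 0.35 without GFP library 1. All 13 mitochondrial messenger RNAs had log2 fold changes above 0, with a median of 0.58, and of 0.54 without that library. The lowest edgeR adjusted p among them was 0.400, so none passed the threshold. An unadjusted edgeR p under 0.05 was found for 12 of the 13, where 8.68% of all genes had one. The 13 were measured in the same libraries, so they do not count as separate observations.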

How the data were processed

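Raw counts of reads per gene, not normalized, were deposited by the authors in 1 column per library. Per the submitters' processing notes, HISAT2, featureCounts and limma were used; no version is stated. Not given in the sources used here are the genome build, the annotation, the strand setting and how reads with several matches were treated. Library preparation used RNeasy extraction and a TruSeq polyA protocol, per the labels' protocols. A table of the authors' own comparison, with log2 fold changes and adjusted p-values, was deposited too; its first 15273 rows were used, and the rows below 2 empty rows, which repeat counts, were left out.

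Counts of all genes were fitted in R 4.3.3 (edgeR 4.0.16: TMM factors, default filter leaving 20511 genes, quasi-likelihood F-test). Fold changes are editor over GFP, and p-values were adjusted by the Benjamini-Hochberg method, with a threshold of 0.05. A prior count of 2 entered log2 CPM. The alternatives tried were scaling by RLE or by library totals; a filter of 50 reads in 3 libraries or none; DESeq2 1.42.0 and limma-voom (limma 3.58.1); a block for the replicate number; an adjusted p of 0.01; summing editor libraries 2 and 3; and omitting each library once. The 3 tools were tested on simulated counts. Lengths, overlaps and coordinates come from GENCODE release 29 on GRCh38, matched by gene ID, and promoters from RefSeq on GRCh38.p14.

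The genes and lists were chosen with earlier results of these data known. Named were, per subunit, the 6 genes with the smallest p, the 3 highest and 3 lowest per kilobase, those failing the filter, stalk, paralog, misnamed and disease genes, and up to 4 per neighbour list with the smallest p. MRPL1, MRPL2, MRPL9, MRPL15, MRPL18, MRPL19, MRPL23, MRPL30, MRPL35, MRPL57, MRPS10, MRPS11, MRPS17 and MRPS28 lie outside this rule and were named after their values were seen, as were the neighbours of the genes with few reads.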

Additional observations from a re-analysis of the deposited data

How the results depend on the processing

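The result that 0 of the 76 tested mitochondrial ribosomal protein genes were called held under each alternative run except the fit with no low-count filter. That fit tested all 78 genes and called 2 lower, MRPL17 and MRPL45, where 0.691% of 44415 genes were called in either direction. The number below 0 ranged from 33 (without GFP library 1) to 66 (without GFP library 2) over libraries left out, and was 46 of 76 with library totals. The median log2 fold change ranged from -0.13 (without editor library 1) to 0.01 (without GFP library 1) over libraries left out. It stayed below 0 under every alternative with all libraries. The median over all genes moved from 0.02 to 0.08 with library totals, and the distance of the mitoribosome median from it was -0.10 both ways. The large minus small difference of medians was -0.01 and ranged from -0.03 to -0.001 over libraries left out.

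Over all genes, the 5 called higher became 178 with no low-count filter, 47 with DESeq2, 3 with limma-voom and 1 at an adjusted p of 0.01, and ranged from 1 (without GFP library 2 or 3) to 159 (without editor library 1) over libraries left out; without GFP library 1 it was 3. The 0 called lower became 129 when no low-count filter was applied and 32 in DESeq2, and ranged from 0 to 54, again highest without editor library 1. The cause was not tested.

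The sign of the log2 fold change turned under at least 1 alternative for 40 of the 76 tested genes. Of the 44 of these genes compared one by one, it turned for 16, and none was called where it turned. With no low-count filter MRPL51 was -0.026 and MRPS18C -0.011, and with library totals MRPS22 was 0.013, MRPS10 0.024 and MRPS17 0.029. Over libraries left out, the log2 fold change ranged from -0.18 to 0.089 for MRPL12, -0.52 to 0.14 for MRPL23, -4.52 to 0.12 for MRPL45 and -0.089 to 0.14 for MRPL51. It ranged from -0.25 to 0.056 for MRPS12, -0.13 to 0.0017 for MRPS16, -0.18 to 0.039 for MRPS18A and -0.054 to 0.12 for MRPS18C. It ranged from -0.16 to 0.048 for MRPS21, -0.12 to 0.013 for MRPS22, -0.27 to 0.019 for MRPS34 and -0.0082 to 0.15 for MRPS5. It ranged from -0.12 to 0.12 for MRPL18, -0.079 to 0.053 for MRPS17 and -0.13 to 0.010 for MRPS28.

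Over all genes, libraries with the same replicate number did not deviate together (r = -0.05, 0.17 and -0.24 for numbers 1 to 3). Over the mitoribosome genes, the median deviation from the other libraries of the group had the same sign in both groups. It was 0.11, -0.05 and -0.05 in editor libraries 1 to 3, and 0.26, -0.20 and -0.07 in GFP libraries 1 to 3. The numbers are not stated to mark a shared culture or day, so they were not taken as pairs in the main fit. Whether they mark pairs was not tested. With the replicate block, 0 of the 76 genes were called, 59 were below 0 with a median of -0.07, and 1 gene was called higher over all genes. With 3 libraries a group, the median standard error of 0.13 limits what could be seen, and genes with few reads are limited further by counting error.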

Other observations

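The 79 pseudogenes with an MRPL or MRPS symbol held few reads, which are not part of the counts above. Of these, 36 had 0 reads in all 6 libraries and 4 had at least 100 mean reads. The highest was MRPL3P1, with 856, 1019 and 1208 reads in the editor libraries and 1091, 1019 and 1028 in the GFP libraries, beside 19762 to 27083 reads for MRPL3, whose sequence it copies. It was followed by MRPL32P2 with 142 to 178 reads, and MRPS18AP1 and MRPS18CP7 with 92 to 122 and 79 to 126 reads. How reads that match both a gene and its pseudogene were assigned is not given in the sources used here. Of the 7 pseudogenes that passed the filter on low counts, the log2 fold change ran from -0.13 for MRPL32P2 to 0.21 for MRPS31P4, and edgeR called 0 of them, with 0 at an unadjusted p under 0.05.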
